A study of Mus musculus with 16 samples.

Results

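The 9 genes described here encode CTCF and the autosomal cohesin machinery: Ctcf, Smc3, Rad21, Stag1, Nipbl, Mau2, Wapl, Pds5a and Pds5b. They were chosen by symbol, not by measured value, from the 24978 gene symbols of a nascent RNA table, and the row spanning the most bases was taken for each. All 9 lie on autosomes and all 9 were above the filter on low values, which 14094 genes passed. Nascent RNA was measured by Bru-seq, in which living cells take up the nucleoside bromouridine (here 2 mM for 30 minutes) and the RNA made during that pulse is captured and sequenced, so that reads fall on introns as well as exons. The cells were mouse embryonic stem cells of F121-9, a hybrid line with 1 129 and 1 castaneus (cast) copy of each autosome, kept in 2i plus LIF, and edited derivatives of it.

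The 16 libraries fall into 12 groups. The edited groups ab.del, c.del and abc.del had 2 libraries each, a.del, b.del, ac.del, bc.del, 4k.b.c, 100kdel, 245kdel and 680kinv had 1 each, and the parental F121-9 cells had 2. The labels name the edits by these letters and sizes, without the coordinates and without the copy that carries them. All groups share the hybrid background, the pulse and, per the labels, the culture conditions. Library names within an edited group end in different codes that may mark clones, but nothing says that 2 libraries came from separate cultures. The p-values therefore cover the spread among these libraries only, which may be technical. Allele-assigned reads over genes ranged from 8.96 M to 32.0 M per library (M, 1000000 reads). Sample numbers fall in 2 runs of 8, called the first and the second deposit block here, whose meaning the labels do not give. The second block holds a.del, b.del, ac.del, 4k.b.c, 100kdel, 245kdel and 1 library each of ab.del and c.del. The first block holds abc.del, bc.del, 680kinv, F121-9 and the other ab.del and c.del libraries. Embryonic stem cell markers were present in every library, at a summed 1538 to 1985 CPM (reads scaled to 1000000 per copy and library) in the second block and 1525 to 2133 CPM in the first, while Col1a1, Col1a2, Col3a1 and Lum, 4 of the 5 fibroblast feeder markers, had 0 reads in 11 to 14 of the 16 libraries and the fifth, Thy1, had a median of 0.478 CPM and at most 1.49 CPM, with 0 reads in 1 library. In a.del, b.del, ac.del, bc.del, 4k.b.c and all libraries of abc.del, ab.del and c.del, 1 copy of the X chromosome gave almost no reads, with a median gap between copies of more than 6 log2 units, whereas both copies were read in 100kdel, 245kdel, 680kinv and F121-9. The copy with almost no reads was cast in b.del, ac.del and c.del replicate 1, and 129 in the others. Whether that copy was present was not tested.

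Cohesin is a ring that encircles DNA. SMC3 and its X-encoded partner SMC1A form the long arms, the kleisin RAD21 closes the ring, and a STAG protein (STAG1 or the X-encoded STAG2) binds RAD21 and contacts CTCF. The loader NIPBL, with MAU2, drives the ring to extrude DNA into loops, WAPL together with PDS5A or PDS5B releases it, and the zinc finger protein CTCF, bound to its motif, halts it and so sets many loop anchors and domain borders. In mouse embryonic stem cells this machinery shapes topological domains.

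Each gene is given in mm10 (GRCm38), the build of the deposited table. Ctcf spans chromosome 8 from 105636538 to 105682922 on the plus strand, and Mau2 lies on the same chromosome from 70016123 to 70042734 on the minus strand. Rad21 (51962604 to 51991760) and Nipbl (8289824 to 8444463) are both on the minus strand of chromosome 15. Pds5a (65607770 to 65697975, minus strand) and Pds5b (150673827 to 150810669, plus strand) share chromosome 5. Smc3 is on chromosome 19 (53600396 to 53645831), Stag1 on chromosome 9 (100643448 to 100958544) and Wapl on chromosome 14 (34673928 to 34747983), all on the plus strand. The rows are whole gene spans, introns and UTRs included.

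Promoter sequences from RefSeq (GRCm38.p6, 250 bases before to 50 after the start) were at hand for 7 of the 9 genes and not for Rad21 and Nipbl. The promoter of Ctcf is shown because CTCF is the factor the other proteins meet on DNA, and those of Stag1, Wapl, Pds5a and Pds5b because these 4 genes were lower in the second deposit block. Capitals mark matches, on either strand, to TTGGCGC (the core bound by the E2F family), ATGGCG (the YY1 core) and GGGCGG (the GC box), and adjoining or overlapping matches run together.
Ctcf, chr8:105636288-105636587, plus strand: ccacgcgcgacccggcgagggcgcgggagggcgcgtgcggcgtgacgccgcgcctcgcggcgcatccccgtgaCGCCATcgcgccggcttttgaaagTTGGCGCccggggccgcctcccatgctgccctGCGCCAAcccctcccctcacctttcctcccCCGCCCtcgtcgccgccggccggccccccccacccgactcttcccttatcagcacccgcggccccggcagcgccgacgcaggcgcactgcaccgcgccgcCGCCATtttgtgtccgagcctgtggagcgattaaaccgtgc
Stag1, chr9:100643198-100643497, plus strand: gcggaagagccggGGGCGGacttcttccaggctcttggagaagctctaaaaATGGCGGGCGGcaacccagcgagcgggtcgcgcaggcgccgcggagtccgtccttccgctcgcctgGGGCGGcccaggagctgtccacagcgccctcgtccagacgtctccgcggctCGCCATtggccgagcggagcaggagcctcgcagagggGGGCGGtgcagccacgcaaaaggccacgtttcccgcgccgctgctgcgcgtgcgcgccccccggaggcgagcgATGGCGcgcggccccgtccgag
Wapl, chr14:34673678-34673977, plus strand: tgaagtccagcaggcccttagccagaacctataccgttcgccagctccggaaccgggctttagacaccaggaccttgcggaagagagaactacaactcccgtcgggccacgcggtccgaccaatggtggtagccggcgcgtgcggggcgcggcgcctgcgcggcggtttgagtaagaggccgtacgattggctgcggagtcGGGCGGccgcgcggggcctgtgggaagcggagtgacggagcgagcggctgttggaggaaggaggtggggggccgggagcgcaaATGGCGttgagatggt
Pds5a, chr5:65698187-65698486, minus strand: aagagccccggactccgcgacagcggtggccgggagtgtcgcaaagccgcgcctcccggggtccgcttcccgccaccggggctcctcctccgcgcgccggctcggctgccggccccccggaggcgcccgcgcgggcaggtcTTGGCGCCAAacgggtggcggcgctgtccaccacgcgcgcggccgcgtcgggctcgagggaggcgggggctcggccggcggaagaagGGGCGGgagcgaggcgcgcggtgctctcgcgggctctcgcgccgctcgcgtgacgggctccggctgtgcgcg
Pds5b, chr5:150673577-150673876, plus strand: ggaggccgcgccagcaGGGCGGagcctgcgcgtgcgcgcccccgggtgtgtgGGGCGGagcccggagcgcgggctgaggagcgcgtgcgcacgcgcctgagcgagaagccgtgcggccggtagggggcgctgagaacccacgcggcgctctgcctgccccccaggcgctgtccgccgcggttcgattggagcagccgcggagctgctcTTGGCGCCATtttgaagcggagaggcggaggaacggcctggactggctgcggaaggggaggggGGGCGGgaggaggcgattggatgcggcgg
The start used for Pds5a lies 261 bases from the start of its row in the deposited table. TTGGCGC was in 3 of the 7 member promoters (Ctcf, Pds5a and Pds5b) and in 2.45% of 32851 mouse promoters of the same length. ATGGCG was in 5 of 7 (Ctcf, Smc3, Stag1, Wapl and Pds5b) against 8.93% of all, and GGGCGG in 7 of 7 against 35.7%. These motifs were picked after the promoters had been read, and a match is a description of the letters only.

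Transcription of the 9 genes differed widely in level. Values are CPM, the mean of the 129 and the cast copy unless a copy is named. Averaged over the 16 libraries, Stag1 had the highest level at 551 ± 132 CPM (SD, n = 16), followed by Pds5a at 209 ± 42.2, Pds5b at 203 ± 22.5, Nipbl at 198 ± 15.0, Rad21 at 177 ± 13.6, Wapl at 110 ± 12.8, Ctcf at 109 ± 18.8, Smc3 at 52.9 ± 4.08 and Mau2 at 9.72 ± 2.84 CPM. Nascent reads cover the whole span of a gene. Stag1, the longest at 315 kb, was highest and Mau2, the shortest at 26.6 kb, was lowest. Between them, Pds5a (90.2 kb) lay above Nipbl (155 kb), and Rad21 (29.2 kb) above Wapl (74.1 kb). The part of gene length in the order was not tested. Per kilobase of span, Rad21 was highest at 6.08 ± 0.467 CPM, Ctcf had 2.35 ± 0.406 and Pds5a 2.32 ± 0.468, Stag1 had 1.75 ± 0.419, Pds5b and Wapl had 1.49 each, Nipbl had 1.28, Smc3 had 1.16 and Mau2 had 0.365 CPM per kilobase. On that scale Ctcf and Pds5a do not differ beyond their spread, nor do Pds5b and Wapl, while Rad21 lies above and Mau2 below every other member in all 16 libraries. Only reads that cover a variant between the copies were counted, so the per-length levels also depend on how many variants each gene holds.

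The spread over libraries separated the members too. Nipbl ranged from 174 to 223 CPM, Smc3 from 47.1 to 61.6 CPM and Rad21 from 150 to 203 CPM, a highest-to-lowest ratio of 1.28, 1.31 and 1.35. Their SDs of 0.11 log2 units each over the 16 libraries were among the smallest measured: of the genes with at least 10 CPM, 0.986%, 0.832% and 1.22% had a smaller one. Pds5b (166 to 230 CPM) and Wapl (88.8 to 133 CPM) followed with ratios of 1.39 and 1.498. Ctcf (85.3 to 159 CPM), Pds5a (140 to 268 CPM) and Stag1 (417 to 868 CPM) varied by 1.86, 1.91 and 2.08 times, and Mau2 (5.84 to 17.0 CPM) by 2.90 times. Mau2 had 202 to 690 reads a library, the fewest of the 9, and the others had at least 1000.

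**Figure D1:**
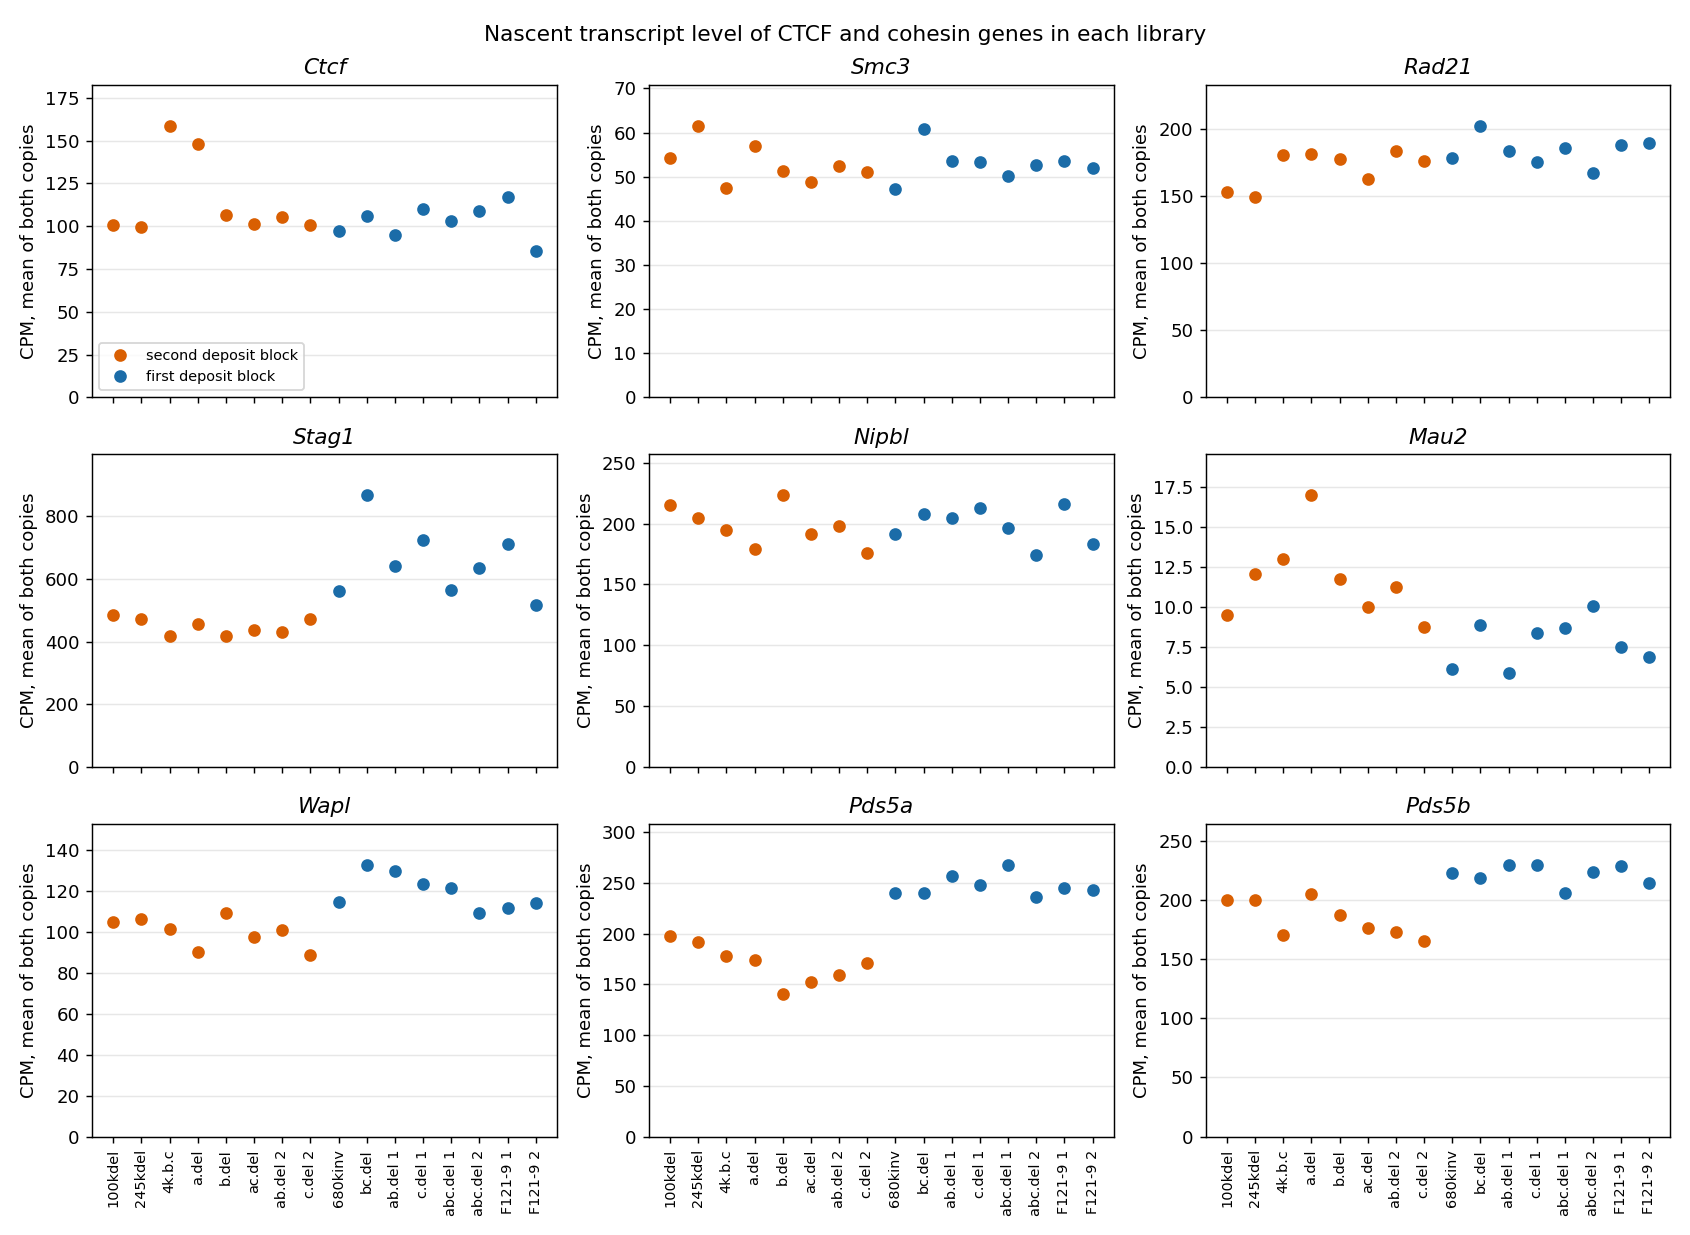
Level of each gene (CPM, mean of both copies) in each of the 16 libraries, second deposit block in orange on the left and first in blue on the right. Pds5a lies at 140 to 197 CPM in the second block and 236 to 268 CPM in the first, while Ctcf stands out in 4k.b.c (159 CPM) and a.del (148 CPM).

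The first question is whether the edited cells transcribe this machinery at another rate than the parental line. None of the 9 genes passed in abc.del against F121-9 (limma with Benjamini-Hochberg adjustment over all genes, threshold 0.05), where 0.220% of all 14094 genes were called. None passed in ab.del or c.del against F121-9 either, where 0.0497% of genes were called in each. No member had an unadjusted p under 0.05 (limma) in these 3 comparisons, and none was called by edgeR or DESeq2 on recovered reads. Of all 14094 genes, 1445, 1099 and 1331 had an unadjusted p under 0.05 in abc.del, ab.del and c.del. At such shares, finding none among 9 genes does not set the members apart.

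Ctcf was read at 103 and 109 CPM in abc.del, 94.7 and 105 CPM in ab.del and 110 and 101 CPM in c.del, against 117 and 85.3 CPM in F121-9. The F121-9 libraries enclose all 6 edited ones. The log2 differences from F121-9 were 0.09 in abc.del (95% interval -0.37 to 0.55), -0.00 in ab.del (-0.46 to 0.46) and 0.08 in c.del (-0.38 to 0.54). Of the ring genes, Smc3 had 50.2 and 52.6 CPM in abc.del, 53.6 and 52.3 CPM in ab.del and 53.3 and 51.1 CPM in c.del, against 53.5 and 52.0 CPM in F121-9. All 8 values lie between 50.2 and 53.6 CPM, and the log2 differences were -0.04, 0.00 and -0.02, with intervals reaching from -0.45 to 0.42. Rad21 had 186 and 167 CPM in abc.del, 183 and 184 CPM in ab.del and 175 and 176 CPM in c.del, against 188 and 190 CPM in F121-9. All 6 edited libraries were below both F121-9 libraries, with log2 differences of -0.10 in abc.del (SE 0.16), -0.04 in ab.del and -0.11 in c.del and adjusted p of 0.860, 0.949 and 0.847 from limma.

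Nipbl, the loader, had 196 and 174 CPM in abc.del, 204 and 198 CPM in ab.del and 213 and 176 CPM in c.del, against 216 and 183 CPM in F121-9. Its partner Mau2 had 8.67 and 10.1 CPM in abc.del, 5.84 and 11.2 CPM in ab.del and 8.34 and 8.71 CPM in c.del, against 7.51 and 6.88 CPM in F121-9. Nipbl overlapped throughout, and Mau2 was above F121-9 in abc.del and c.del with log2 differences of 0.37 (interval -0.45 to 1.20) and 0.24 (-0.58 to 1.07) that did not pass. Stag1 differed by -0.02, -0.21 and -0.05 in abc.del, ab.del and c.del, Wapl by 0.03, 0.02 and -0.11, Pds5a by 0.04, -0.27 and -0.25, and Pds5b by -0.04, -0.15 and -0.18. The ab.del and c.del pairs straddle the 2 deposit blocks, and for these last 4 genes the block difference described below is larger than any of these values. Over the 9 genes the median log2 difference was -0.02 in abc.del, -0.00 in ab.del and -0.05 in c.del, beside 0.04, 0.08 and 0.09 over all genes tested.

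Among the 12 libraries named by letters or parental, in which each of sites a, b and c is present in the name of 6 libraries and absent from 6, no member passed for a site. Of all genes 0.0142% were called for site a, 0% for site b and 0% for site c, and no member had an unadjusted p under 0.05 or was called by edgeR or DESeq2. The member values ran from -0.26 to 0.25 for site a, -0.10 to 0.22 for site b and -0.05 to 0.21 for site c. The site fit had no term for the deposit block, so these values may hold part of the block difference described below. The highest for site a is Mau2, whose a.del value goes with a higher cast copy of chromosome 8, described below. Of all 14094 genes 1246, 717 and 459 had an unadjusted p under 0.05 (limma) for sites a, b and c. At such shares, finding none among 9 genes does not set the members apart. Among the groups with 1 library, a.del, b.del, ac.del, 4k.b.c, 100kdel and 245kdel lie in the second deposit block and F121-9 in the first. Edit and block cannot be told apart for them, and the fit had no block term. For Pds5a the block difference described below is -0.67 log2 units. In the 8 groups with 1 library, where the spread was taken from the 4 pairs and the lone library is assumed to vary like them, 0 of 72 tests against F121-9 passed. The share of all genes called there was 0.490% in a.del, 0.0710% in b.del, 0.0213% in ac.del, 0.0426% in bc.del, 0.0497% in 4k.b.c and 0% in 100kdel, 245kdel and 680kinv. The a.del share rests on 69 genes, a count that ran from 4 without F121-9 replicate 1 to 292 without c.del replicate 2. The 4 member tests with an unadjusted p under 0.05 were Mau2 in a.del (1.23 log2 units higher, adjusted p 0.229), Ctcf in 4k.b.c (0.67, adjusted p 0.275) and a.del (0.57, adjusted p 0.271), and Pds5a in b.del (-0.80, adjusted p 0.282), all by limma.

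**Figure D2:**
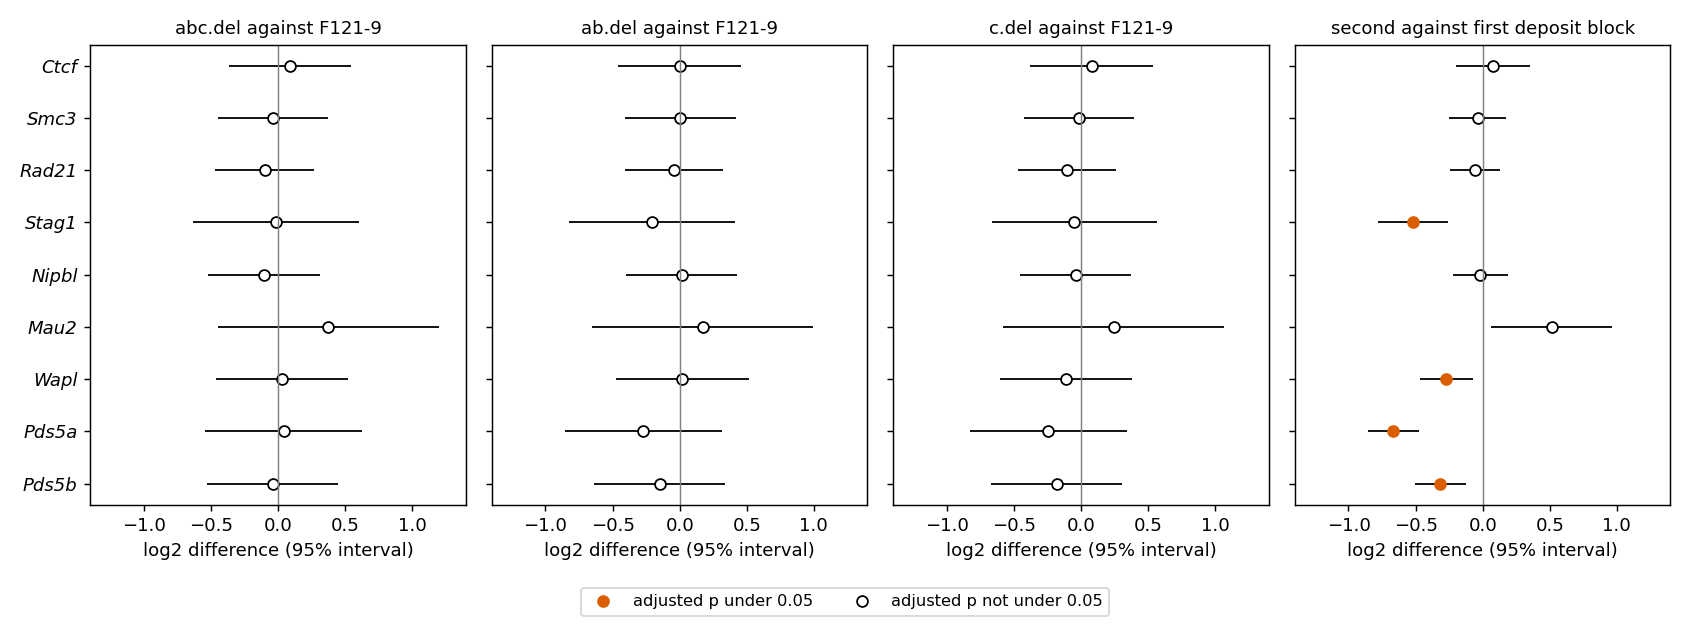
Log2 difference with its 95% interval (limma) for each gene in the edited groups with 2 libraries, set against F121-9, and for the second against the first deposit block. Filled points have an adjusted p under 0.05: none in the first 3 panels, and Stag1, Wapl, Pds5a and Pds5b, all lower in the second block, in the fourth.

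The libraries also differ by deposit block. With terms for sites a, b and c, 4 of the 9 genes were lower in the second block and 0 higher (limma, adjusted p under 0.05), beside 24.6% of all genes called in either direction, 6.99% lower and 17.6% higher. The 4 are the STAG subunit and the 3 genes of the release machinery. The median over the 9 genes was -0.06 log2 units, beside 0.15 over all genes tested. F121-9, abc.del and bc.del lie wholly in the first block and a.del, b.del and ac.del wholly in the second, so the estimate leans on the additive site terms as well as on ab.del and c.del, which have a library in each.

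Pds5a, one of the paired PDS5 scaffolds that hold WAPL on the ring, had 175, 140, 153, 159 and 171 CPM in a.del, b.del, ac.del, ab.del and c.del of the second block. The 7 lettered or parental libraries of the first block had 236, 245 and 268 CPM as lowest, median and highest. The groups are 61.9 CPM apart at their nearest, and the log2 difference was -0.67 (SE 0.09, adjusted p 0.00051 by limma, 0.631-fold). The share of all genes whose blocks lie apart is not given here, so a gap between blocks, here or below, only describes the values. The libraries outside that fit lay on the same sides, with 178, 192 and 197 CPM in 4k.b.c, 245kdel and 100kdel of the second block, against 241 CPM in 680kinv of the first. Each copy gave a like value when taken alone, -0.64 on 129 and -0.69 on cast.

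Stag1 had 458, 418, 437, 430 and 473 CPM in the same 5 libraries of the second block, against a lowest, median and highest of 516, 641 and 868 CPM in the 7 of the first. The groups did not overlap, and the difference was -0.52 log2 units (SE 0.12, adjusted p 0.0087, limma). In the first block Stag1 was also the more variable, with an SD of 116 CPM against 22.1 CPM in the second, and bc.del alone held the highest value. Pds5b, the paralogue of Pds5a, had 205, 187, 177, 174 and 166 CPM in the second block, against 206, 224 and 230 CPM as lowest, median and highest in the first. The nearest values of the 2 groups are 1.52 CPM apart, and the difference was -0.32 (SE 0.09, adjusted p 0.021, limma). Wapl, the release factor, had 90.4, 110, 97.7, 101 and 88.8 CPM in the second block, against 110, 121.8 and 133 CPM in the first, and the groups met at b.del and 1 abc.del library. Its difference of -0.27 (SE 0.09) had an adjusted p of 0.049 by limma, the closest of the 4 to the threshold, and leaving out any 1 of abc.del replicate 1, either library of ab.del, c.del or F121-9, or a.del took it past 0.05, to between 0.059 and 0.155. On the 129 copy alone Wapl differed by -0.41 and passed, and on the cast copy alone by -0.14 (adjusted p 0.366) and did not. Pds5b also left the threshold without either ab.del library or without c.del replicate 2 (adjusted p 0.053 to 0.068).

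The other 5 genes did not pass. Nipbl differed by -0.02, Smc3 by -0.04, Rad21 by -0.06 and Ctcf by 0.08, with intervals of at most 0.35 log2 units from 0. Mau2 had 17.0, 11.7, 10.0, 11.2 and 8.71 CPM in a.del, b.del, ac.del, ab.del and c.del of the second block, against 5.84, 8.34 and 10.1 CPM in the first (0.52, SE 0.21, adjusted p 0.088, limma). The Mau2 and Ctcf values include a.del, where the cast copy of chromosome 8 was higher as a whole (median log2 difference 1.23, described below). Scaling bears on these values: centring each library on its autosomal median lowers every difference by 0.29 log2 units, which puts Pds5a at -0.95, Stag1 at -0.81, Pds5b at -0.60, Wapl at -0.56, Rad21 at -0.34, Smc3 at -0.32, Nipbl at -0.31 and Ctcf at -0.21, with Rad21 then passing as the fifth. Ctcf, which did not pass under any setting, turned to the lower side there, as it did by edgeR (-0.09), by DESeq2 (-0.10) and without F121-9 replicate 2 (-0.02). DESeq2 also called Rad21 (-0.23, adjusted p 0.049). Under that centring 18.2% of all genes were called lower, and 29.3% of the called genes were higher, compared with 71.5% without it. edgeR with its own scaling called 4 members, all lower, among 11.6% of genes called lower.

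Gene span moved with the block difference. Among genes with at least 10 CPM, the median block difference was 0.64 for the 502 genes under 10 kb, 0.22 for the 2123 of 10 to 30 kb, -0.04 for the 2559 of 30 to 100 kb, -0.15 for the 1060 of 100 to 300 kb and -0.04 for the 244 longer ones. Lower calls made up 14.8% of the genes of 30 to 100 kb, where Pds5a (90.2 kb) and Wapl (74.1 kb) belong, and 22.0% of those of 100 to 300 kb, where Pds5b (137 kb) belongs. Ctcf (46.4 kb), Smc3 (45.4 kb) and Nipbl (155 kb) have spans in the same ranges and did not pass, Rad21 (29.2 kb) falls in the range with a positive median, as does the span of Mau2 (26.6 kb), which at 9.72 CPM is not among the genes counted, and Stag1 (315 kb) is among the longest, where 11.9% were called lower. The part of gene span in the block difference of the members was not tested.

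**Figure D3:**
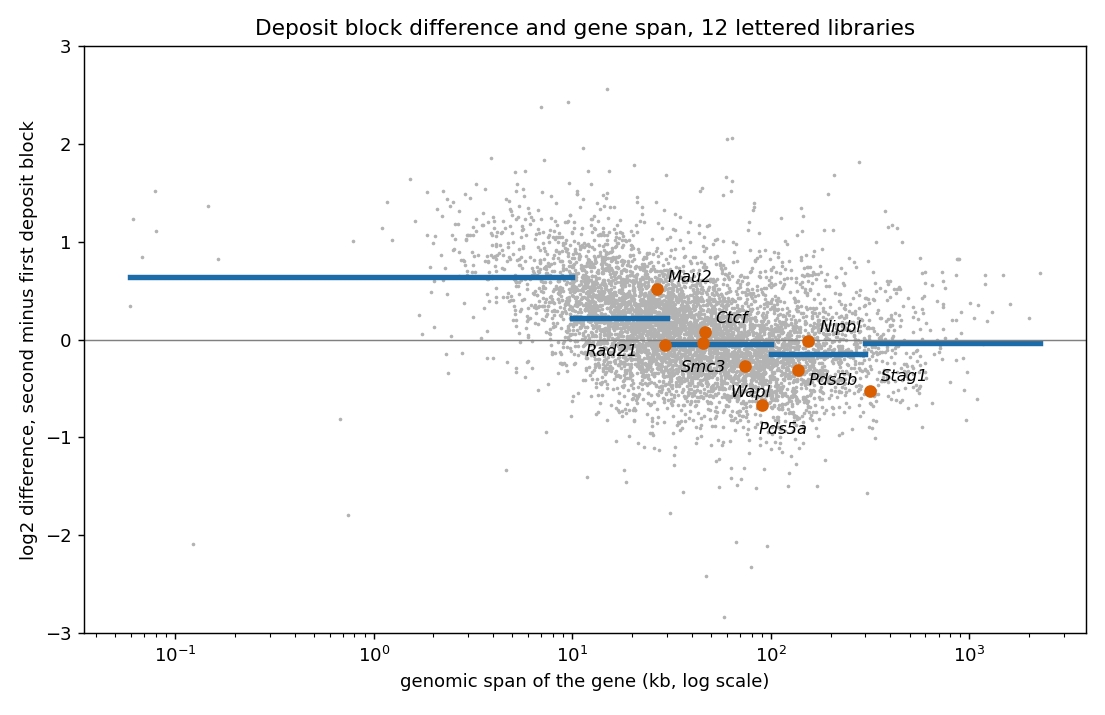
Log2 difference between the second and the first deposit block (y axis) against genomic span in kb (log x axis) for genes with at least 10 CPM in grey, the median of each span class of these genes as a blue bar, and the 9 members in orange, of which Mau2 averages 9.72 CPM and so is not in the classes. Class medians run from 0.64 under 10 kb to -0.15 at 100 to 300 kb, and Pds5a (-0.67) and Stag1 (-0.52) lie below the bar of their class.

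Some markers of cell state moved with the block too. The neural markers Pax6, Sox1 and Nes summed to 9.12 to 27.0 CPM in the lettered or parental libraries of the second block and 2.18 to 5.82 CPM in those of the first, with Pax6 and Nes, 2 of the 2 tested, higher. Mesoderm markers summed to 1.46 to 2.96 CPM in the second block and 0.330 to 0.990 CPM in the first, with T higher, Eomes not called and Mixl1 at 0 reads in 11 of 16 libraries. Of the 7 stem cell markers, Pou5f1, Sox2, Klf4 and Nanog were higher in the second block and the other 3 were not called. The called ones span 2.47 to 7.15 kb, in the class under 10 kb, where 62.5% of genes with at least 10 CPM were called higher. Zfp42, Tfcp2l1 and Esrrb, not called, span 11.9, 57.2 and 161 kb. Nes and T also span under 10 kb (9.36 and 8.07 kb) but average under 10 CPM, and Pax6 spans 29.5 kb. The part of gene span in these marker differences was not tested. These are bulk libraries, in which fewer cells of a type and less RNA per cell cannot be told apart, and the part of these markers in the block difference was not tested.

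Both chromosome 8 members, Ctcf and Mau2, stood apart in 4k.b.c and a.del on 1 copy only. The cast copy of Ctcf was read at 207 CPM in 4k.b.c and 198 CPM in a.del, against 113 and 87.1 CPM in the F121-9 libraries. The 129 copy had 110 CPM in 4k.b.c and 98.8 CPM in a.del, against 120 and 83.6 CPM in F121-9. The cast copy was 1.06 and 0.99 log2 units above the F121-9 mean, while the 129 copy lay between the parental values. Of the Ctcf reads, 64.3% came from cast in 4k.b.c (95% Wilson interval 62.7% to 65.9%, 3328 reads) and 64.7% in a.del (63.4% to 65.9%, 5711 reads), against 46.0% and 48.3% in F121-9. These intervals cover counting error only.

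Mau2 showed the same side. Its cast copy had 16.8 CPM in 4k.b.c and 23.7 CPM in a.del, against 6.89 and 5.54 CPM in F121-9, and its 129 copy had 9.19 and 10.2 CPM in the same edited libraries, against 8.13 and 8.22 CPM in F121-9. Over the 562 genes of chromosome 8 with at least 1 CPM on each copy, described here with no test, the median log2 difference from F121-9 on cast was 1.06 in 4k.b.c and 1.23 in a.del, beside 0.17 and 0.29 on 129, and 79.0% and 83.3% of them were over 0.5 log2 units higher on cast. In the other edited libraries the cast median of the chromosome ran from -0.10 to 0.32.

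As the balance of the copies, 129 minus cast against F121-9, Ctcf differed by -0.93 in 4k.b.c and -1.02 in a.del, and Mau2 by -1.26 and -1.61, none past the threshold (limma adjusted p 0.075, 0.066, 0.137 and 0.079). In these comparisons, added after the data had been seen, 0 of 9 members passed in any of the 8 groups, beside 10.5% of all genes in 4k.b.c, 8.89% in a.del, 0.0526% in b.del, 0.0225% in bc.del and 0% in the other 4, and 6 member tests had an unadjusted p under 0.05. Besides those 4 they were Mau2 in bc.del (-1.31, adjusted p 0.233, limma) and Wapl, on chromosome 14, in b.del (-0.56, adjusted p 0.226, limma). With genes of at least 1 CPM alone, Ctcf passed in both libraries. The copies of chromosome 8 also lay unevenly in c.del replicate 1, with a median 129 minus cast of -0.28, where Ctcf had 95.9 CPM on 129 and 124 CPM on cast. Mau2 was uneven in libraries whose chromosome was not, with 63.9% of its reads from cast in bc.del (95% Wilson interval 57.0% to 70.2%), 30.3% in ab.del replicate 1 (24.6% to 36.7%) and 28.5% in 680kinv (23.1% to 34.5%). It was also below an even share in b.del, at 36.7% (30.9% to 42.9%), against 43.4% (38.4% to 48.5%) and 37.7% (31.5% to 44.3%) in the F121-9 libraries.

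**Figure D4:**
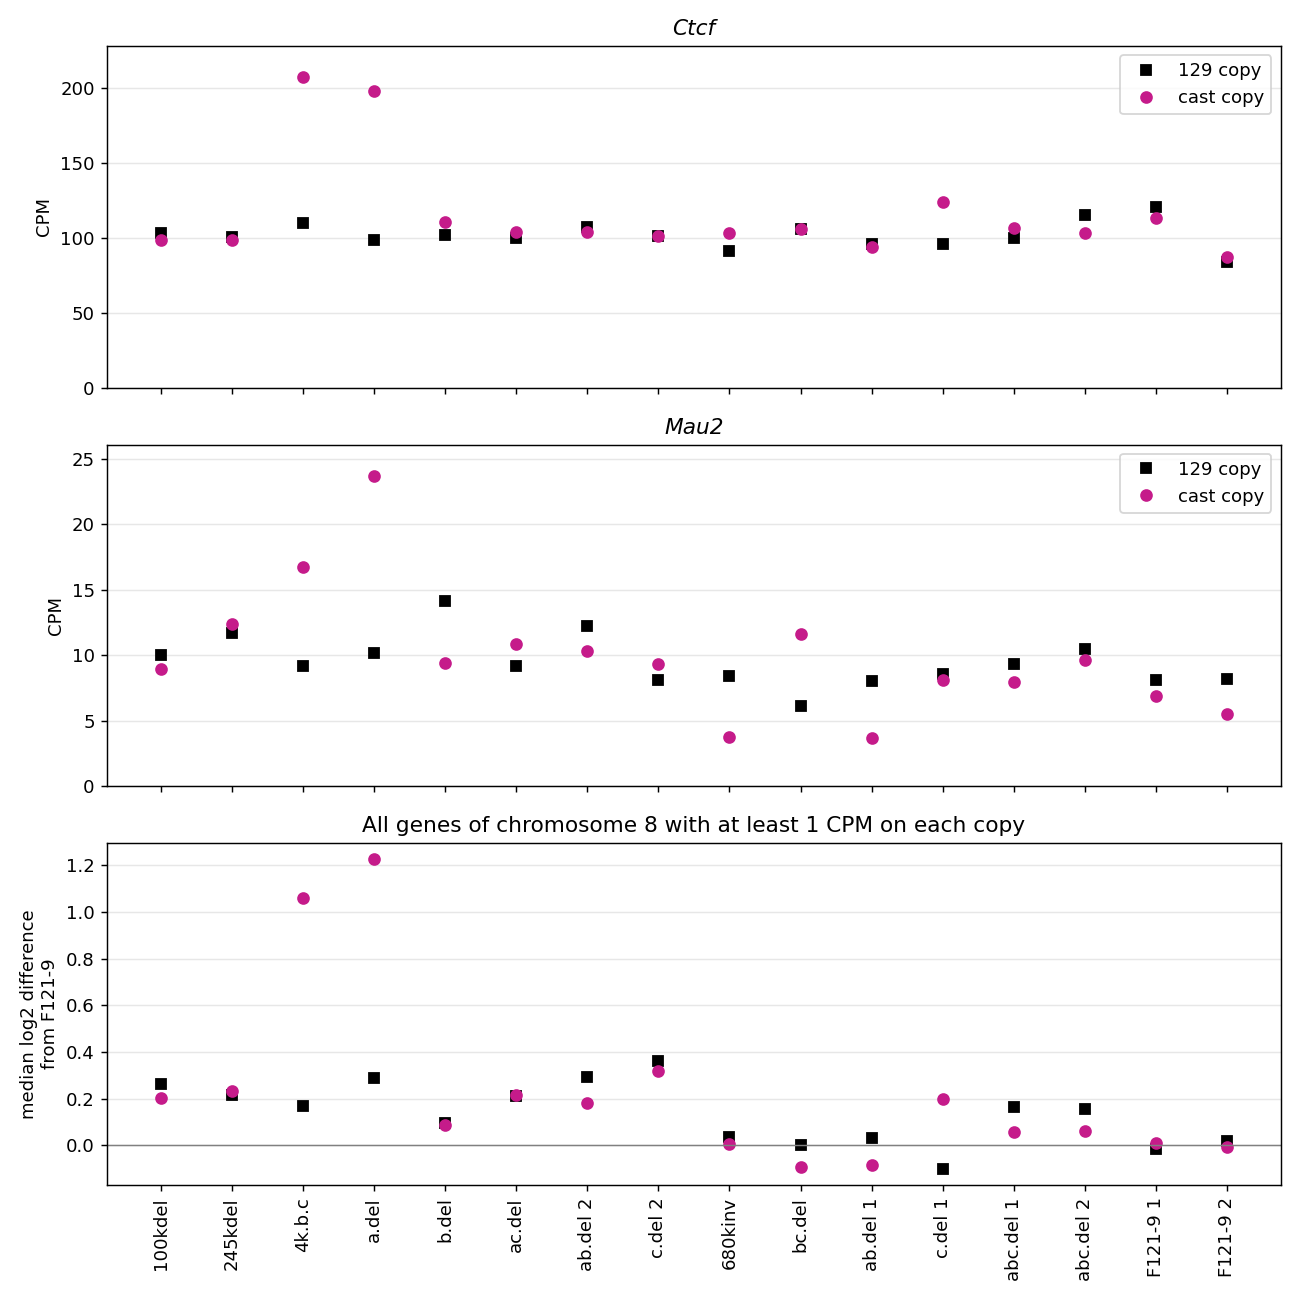
Level of the 129 copy (black squares) and the cast copy (purple circles) of Ctcf and Mau2 in CPM in each library, and below them the median log2 difference from F121-9 over 562 chromosome 8 genes for each copy. The cast copy stands apart in 4k.b.c and a.del in all 3 panels, at 207 and 198 CPM for Ctcf and at medians of 1.06 and 1.23.

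The remaining 7 genes sit on chromosomes 5, 9, 14, 15 and 19, whose medians of 129 minus cast stayed between -0.14 and 0.09 in every library. Set against F121-9, the balance of the copies did not pass for any of the 9 genes in ab.del, c.del or abc.del, beside 0% of 13310 genes called. No member had an unadjusted p under 0.05 (limma), beside 953, 700 and 819 of the 13310 genes in abc.del, ab.del and c.del. At such shares, finding none among 9 genes does not set the members apart. Over all 16 libraries, 4 members were lower on 129 than on cast and 0 higher, beside 44.0% of genes called in either direction, 21.2% lower and 22.8% higher, so the count is near the background. The median of 129 minus cast was -0.09 over the 9 genes and -0.01 over all genes tested. Nipbl averaged 182 ± 15.2 CPM on 129 and 214 ± 17.8 CPM on cast (SD, n = 16), a difference of -0.23 (SE 0.03, adjusted p 1.67e-05, limma), and was lower on 129 in 16 of 16 libraries. Stag1 averaged 523 ± 124 CPM on 129 and 578 ± 140 CPM on cast (-0.14), and Pds5b 193 ± 22.9 and 213 ± 22.7 CPM (-0.15), each also lower on 129 in 16 of 16 libraries. These counts hold after each copy is scaled to its own total. In recovered reads the cast share was below even in some libraries, as in F121-9 replicate 1 for Stag1 (49.6%) and Pds5b (49.2%) and in 245kdel for Nipbl (49.8%). Smc3 followed at -0.09 (adjusted p 0.014, limma), which did not pass after centring on its own chromosome. Rad21 (-0.00) and Pds5a (-0.02) had narrow intervals around 0, from -0.07 to 0.06 and from -0.08 to 0.04.

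Ordered by group, Ctcf was highest in 4k.b.c (159 CPM) and a.del (148 CPM), and the other 10 groups lay between 97.1 CPM in 680kinv and 106 CPM in b.del. Only the step between a.del and b.del, 0.48 log2 units, exceeded the SD within pairs of 0.18, and the other 10 steps did not. The highest groups for Smc3 were 245kdel (61.6 CPM) and bc.del (60.8 CPM), and for Rad21 bc.del (203 CPM), with 245kdel last at 150 CPM, although both are parts of 1 ring. For Nipbl, Wapl, Pds5a and Pds5b no step between neighbouring groups exceeded the SD within pairs. That SD includes the block difference, because the ab.del and c.del pairs have a library in each block. For Pds5a it was 0.31 log2 units, with 256 and 159 CPM in ab.del but 245 and 244 CPM in F121-9. The steps of such genes therefore cannot show that the groups are alike.

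The genes whose pattern over the 16 libraries was most like that of a member, by the root mean square difference of centred log2 values among 14093 genes, were Abce1 (0.11), Nap1l4 (0.11) and Tsg101 (0.12) for Ctcf. Abce1, like Ctcf, lies on chromosome 8, and so does Ankrd10 (0.15), the nearest to Mau2. Nearest to the others were Ube3c for Smc3 (0.08), Anapc1 for Rad21 (0.08), Tmem161b for Stag1 (0.09), BC055324 for Nipbl (0.09), Psmb1 for Wapl (0.09), Gigyf2 for Pds5a (0.09) and Hmbox1 for Pds5b (0.06). Among the members themselves, the nearest pair was Pds5b and Wapl at 0.12, with 34 genes nearer to Wapl and 50 nearer to Pds5b, followed by Nipbl and Smc3 at 0.13. No member was the nearest gene to another.

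Genes that work with the 9 were followed as lists. Of the 3 X-linked cohesin genes, none passed in abc.del, ab.del or c.del against F121-9. Smc1a, the partner of SMC3, had 77.1 and 66.1 CPM in abc.del, 64.7 and 77.8 CPM in ab.del and 73.3 and 65.0 CPM in c.del, against 114 and 90.1 CPM in F121-9. The log2 differences of -0.51, -0.52 and -0.56 did not pass, although the values of the 6 edited libraries and of F121-9 do not overlap, and all 6 read 1 X copy. Over 354 X genes with at least 1 CPM on each copy, the median log2 difference from F121-9 ran from -0.78 to -0.59 in these 6 libraries. The Smc1a values are thus no lower than those X medians. Stag2, the paralogue of Stag1, was lower in the second block (log2 difference -0.68, SE 0.16, adjusted p 0.0077, limma), at 7.42 to 11.5 CPM in the 5 libraries of the second block, against 11.5 to 19.2 CPM in the 7 of the first, where F121-9 reads both X copies. Stag2 did not pass where only ab.del and c.del carry the block (adjusted p 0.057, limma). It did not pass on either copy alone, but those fits also depend on which X copy each library reads. Hdac8, which deacetylates SMC3, had differences of -1.50, -1.02 and -0.91 from F121-9 in abc.del, ab.del and c.del that did not pass. It too was read from 1 X copy in these libraries, whose X medians are given above. Of 10 genes of the cohesion cycle, such as acetyltransferases, separase and shugoshins, none passed against F121-9 in these 3 groups, and 1 was higher and 1 lower in the second block. Sgo2a, which protects centromeric cohesin, had 73.7 to 81.9 CPM in the second block and 99.2 to 130 CPM in the first (-0.55, SE 0.10, adjusted p 0.0027, limma), and did not pass on either copy alone (adjusted p 0.081 on 129 and 0.521 on cast). In a.del, however, Sgo2a was read almost wholly from 129, at 157 CPM against 0.0536 CPM on cast. A fit on 1 copy therefore cannot give the block difference of Sgo2a. Haspin, the kinase of histone H3 at centromeres, averaged 1.01 ± 0.19 CPM in the second block (SD, n = 5) and 0.331 ± 0.29 CPM in the first (n = 7), 1.64 log2 units higher (SE 0.41, adjusted p 0.013, limma), and did not pass on 129 alone or where only ab.del and c.del carry the block (adjusted p 0.159 and 0.054). These are levels of few reads, and the blocks overlap. The bc.del library of the first block had 0.984 CPM, inside the 0.808 to 1.29 CPM of the second.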

How the data were processed

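Bru-seq libraries of 16 samples were read from 1 deposited table with 2 columns per library, 32 in all. Per the submitters' processing notes, Bowtie2, bedtools and mm10 were used, with versions not given in the sources used here. SNPs split reads, per the file headers, into those for the reference (taken as 129) and the variant copy (cast). The deposited values are CPM, since every column adds up to 1000000 over 42497 lines, although the submitters name the table for RPKM. Whole reads were recovered for 100% of values within 0.01. The 6 segments drawn by the authors were left out.

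For each symbol the widest row was used, and the repeated rows of the 9 genes held the same values. Tests used limma 3.58.1 in R 4.3.3 (trended eBayes, two-sided, Benjamini-Hochberg over all genes, threshold 0.05) on log2(mean CPM of both copies + 0.1) for 14094 genes whose mean CPM reached 0.2. Fold changes are on that scale. Separate fits set the groups with 2 libraries against F121-9 (8 libraries), tested sites a, b and c and the deposit block (12 libraries) and tested the single-library groups (16 libraries); the copies were compared as 129 minus cast over 13310 genes. Replicate numbers other than those of F121-9 were given in accession order. Alternatives were other pseudocounts and filters, centring, single copies, leaving out libraries, the block as a covariate, and edgeR 4.0.16 and DESeq2 1.42.0 on recovered reads. Python 3.11.15 with pandas 2.3.3, scipy 1.17.1 and numpy 2.4.6 gave the rest, and fits were tested on simulated data. The 9 genes, the lists (all members; of other lists the passing genes, at most 4, or the 2 with the smallest p) and the tests were chosen with earlier results of these data known. Smc1a, Hdac8 and Stag3 fall outside that rule and were named after their values were seen. A passing gene of these lists is not reported here.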

Additional observations from a re-analysis of the deposited data

How the results depend on the processing

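The 0 members passing in the groups of 2 libraries against F121-9, for sites a, b and c, in the single-library groups and in the balance of the copies in abc.del, ab.del and c.del stayed at 0 under every alternative run. The 4 members passing in 129 against cast stayed at 4, except 3 with centring on the own chromosome. For the deposit block, 4 members passed, 2 to 4 when 1 library was left out (2 without ab.del replicate 1, ab.del replicate 2 or c.del replicate 2) and 3 to 6 under the other settings, with Pds5a and Stag1 passing in all of them. For the balance of the copies in single-library groups, 2 passed with a pseudocount of 1, 2 when the mean CPM had to reach 1, and 0 to 1 when 1 library was left out. The cause of these changes was not tested. No called member changed direction. The block difference of the X-linked Stag2 was 0.076 on 129 alone (adjusted p 0.981, limma), the reverse of its value over both copies. Libraries differ in the X copy they read: Stag2 on 129 had 0.057 CPM in abc.del replicate 2 and 29.1 CPM in c.del replicate 1. A fit on 1 copy therefore cannot give the block difference of this gene.

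Counts over all genes moved more. In abc.del 31 genes were called, against 0 to 156 when 1 library was left out, 13 with a pseudocount of 0.01, 18 with edgeR, 87 with autosomal centring, 358 with DESeq2 and 671 with the block as a covariate. In ab.del 7 were called, against 0 to 53 when 1 library was left out, 0 on cast alone, 187 with DESeq2 and 202 with the block. In c.del 7 were called, against 0 to 29, 0 on either copy alone, 222 and 207. The block called 3461 genes, against 1802 on cast alone and 1983 on 129 alone. No paired analysis was possible because replicate numbers are accession order names in every group but F121-9. Mau2, with 67 reads on its thinnest copy, is the member most limited by depth.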

Other observations

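The germline paralogues of cohesin and CTCF were also read. Rad21l and Ctcfl were below the filter, and of the 3 tested none passed in abc.del, ab.del or c.del against F121-9. Smc1b, the germline partner of SMC3, passed in a.del (log2 difference -4.11, SE 0.65, adjusted p 0.036, limma), where 0.490% of all genes were called. It did not pass there without either library of abc.del or of F121-9 (adjusted p 0.097 to 0.397, limma), and passed without any 1 of the ab.del and c.del libraries. It had 27.2, 45.2 and 42.6 CPM in 680kinv, 100kdel and 245kdel, and 0.638 to 5.75 CPM in the other 11 edited libraries, against 12.3 and 26.6 CPM in F121-9. The 5 libraries with high Smc1b are those that read both X copies, and Smc1b itself is on chromosome 15. In abc.del its difference of -2.99 had an adjusted p of 0.080. Stag3, the germline STAG paralogue, had 16.7, 34.7 and 29.8 CPM in 680kinv, 100kdel and 245kdel and 5.80 to 19.1 CPM in the other 11 edited libraries, against 23.0 and 18.2 CPM in F121-9, so those ranges overlap. The part of the X chromosome in these values was not tested.

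Of the 12 condensin and SMC5/6 genes tested and the 10 factors at CTCF sites or loop anchors, none passed in abc.del, ab.del or c.del against F121-9. In the second against the first deposit block, 1 condensin gene was lower: Ncapd3, of condensin II, at 0 to 0.123 CPM in 5 libraries and 0.515 to 1.45 CPM in 7 (log2 difference -2.36, adjusted p 0.0015, limma), a level of few reads, and did not pass on cast alone (adjusted p 0.081). Among the factors, Brd2 had 48.9 to 85.0 CPM in the second block and 17.0 to 29.1 CPM in the first (1.49, adjusted p 0.00026), by limma. Ddx5, an RNA helicase, had 71.3 to 82.4 CPM in the second block and 32.8 to 44.8 CPM in the first (1.05, adjusted p 0.00026). Brd2 spans 10.6 kb and Ddx5 8.83 kb, in the shorter of the span classes described above.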
